A study of Mus musculus with 6 samples.

Results

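Regions of open chromatin that were strong in both libraries labelled maxillary process and carried no peak in any other library, and the reverse, were collected from 6 lists of ATAC-seq peaks made from the mouse embryonic face. Peaks of all lists that overlapped by at least 1 bp were merged into 382006 regions. A region was called gained when its −log10 q, the authors' measure of peak strength within a library, was at least 5 in both maxillary-labelled libraries and no peak of the other 4 lay in it. A region was called lost when the value was at least 5 in all 4 other libraries and neither maxillary-labelled list had a peak there. This rule found 456 gained and 127 lost regions, 583 in all. The strength and the presence of a peak chose the members, so both are described here and were not tested.

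ATAC-seq reads out accessible DNA through the Tn5 transposase, which inserts sequencing adapters where chromatin is open. The tissue was dissected from wild-type embryos at stage E11.5, the cells are given as mixed, and 2 single-end libraries with reads of 50 bp carried each of the labels maxillary process, mandibular process and nose. No allele, transgene or treatment is given for any library. Nothing in the labels states that replicates stem from different embryos, so differences between them may be technical. In bulk tissue a peak that is missing because the cells that use it are fewer and one missing because the DNA is closed in the same cells cannot be told apart.

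The maxillary and mandibular processes are the upper and lower parts of the first pharyngeal arch and form most of the upper jaw and the lower jaw. Their mesenchyme comes largely from the cranial neural crest and is given its position by secreted signals. Endothelin signalling in the lower part of the arch turns on Dlx5, Dlx6 and Hand2, while Pou3f3 marks the upper part and Alx genes mark the tissue around the nose. Much of this patterning runs through enhancers, stretches of DNA far from genes that are opened and bound by transcription factors in particular cells. Most promoters and most sites of CTCF, a factor that organises chromosome loops, are open in many tissues alike.

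The label could be checked only through such genes. The names of the deposited jaw files carry the abbreviation of the other jaw, and the groups used here follow the sample labels. Without the strength limit, regions called in both maxillary-labelled libraries and in no other numbered 13 near the 10 genes of a lower-jaw list (Hand1, Hand2, Dlx3, Dlx4, Dlx5, Dlx6, Gsc, Nkx3-2, Barx1 and Edn1), against 3 called in all libraries but these. Of the 276 regions near this list these were 4.71% and 1.09%, beside 1.91% and 1.2% of all merged regions. For the mandibular-labelled libraries the same counts were 5 and 2 (1.81% and 0.725%, beside 2.82% and 0.816% of all regions), and for the nose-labelled ones 4 and 5 (1.45% and 1.81%, beside 3.18% and 0.957%). Near 6 genes of frontonasal mesenchyme (among them Alx1, Alx4, Pax3 and Pax7) the maxillary-labelled libraries had 4 gained and 9 lost of 277 regions (1.44% and 3.25%), the mandibular-labelled ones 14 and 3 (5.05% and 1.08%), and the nose-labelled ones 14 and 2 (5.05% and 0.722%). Near the upper-jaw list, with 273 regions, the maxillary-labelled libraries had 4 gained (1.47%) and 3 lost (1.10%). The mandibular-labelled libraries had 8 gained there (2.93%) and 2 lost (0.733%). For the nose label, 13 were gained (4.76%) and 5 lost (1.83%). On these few regions, without a test, the lower-jaw list lay above the gained share of all regions in the maxillary-labelled libraries. It lay below that share in the mandibular-labelled ones, the opposite of what the jaw labels name. The upper-jaw list gave no such clear reversal, since its gained share in the mandibular-labelled libraries was near that of all regions (2.82%). A list of muscle progenitors had a gained share of 4.26% in the maxillary-labelled libraries, near that of the lower-jaw list. All lists were chosen with earlier results of these data known. The label was thus not settled, and the libraries are called maxillary-labelled and mandibular-labelled throughout.

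The windows of 201 bp around the strongest summits of the 5 strongest gained regions and of 2 of the 3 strongest lost regions are shown first, ordered by the lowest −log10 q over the libraries that had to be strong, and each is named after the nearest protein-coding gene. They are shown as examples of strong peaks of either kind. The window of the strongest lost region is not shown. Coordinates are on mm10 and the bases are those of the RefSeq copy of that assembly. Capitals mark matches, on either strand, to 5 short motifs. Homeobox factors are searched by TAATTA and forkhead factors by TGTTTAC. The motif used for MEIS proteins is TGACAG. For the GATA family the letters are AGATAA. That of the RUNX family was written as TGTGGTT.
Stim2, chr5:55049632-55049832, plus strand: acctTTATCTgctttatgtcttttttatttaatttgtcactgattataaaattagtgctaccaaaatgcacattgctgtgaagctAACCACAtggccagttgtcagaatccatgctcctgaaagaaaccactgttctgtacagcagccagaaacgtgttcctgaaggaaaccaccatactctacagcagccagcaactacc
Plod2, chr9:92597957-92598157, plus strand: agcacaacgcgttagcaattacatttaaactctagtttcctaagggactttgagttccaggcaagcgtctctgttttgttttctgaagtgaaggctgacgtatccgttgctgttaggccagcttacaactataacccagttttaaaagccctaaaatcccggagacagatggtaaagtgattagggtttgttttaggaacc
Odf1, chr15:38169787-38169987, plus strand: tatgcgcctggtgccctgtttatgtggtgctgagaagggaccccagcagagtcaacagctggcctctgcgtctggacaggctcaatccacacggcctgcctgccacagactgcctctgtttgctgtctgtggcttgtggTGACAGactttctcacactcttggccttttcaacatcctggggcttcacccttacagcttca
Agbl1, chr7:76594619-76594819, plus strand: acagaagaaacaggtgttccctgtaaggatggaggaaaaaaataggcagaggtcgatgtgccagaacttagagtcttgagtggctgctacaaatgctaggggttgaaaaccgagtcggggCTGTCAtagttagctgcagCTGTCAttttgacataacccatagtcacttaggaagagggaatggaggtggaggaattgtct
Cryz, chr3:154540561-154540761, plus strand: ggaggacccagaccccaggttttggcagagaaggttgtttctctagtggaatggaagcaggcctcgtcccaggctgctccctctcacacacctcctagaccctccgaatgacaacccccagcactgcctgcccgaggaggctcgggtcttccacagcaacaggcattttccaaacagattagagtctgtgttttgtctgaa
Cdh8, chr8:100908586-100908786, plus strand: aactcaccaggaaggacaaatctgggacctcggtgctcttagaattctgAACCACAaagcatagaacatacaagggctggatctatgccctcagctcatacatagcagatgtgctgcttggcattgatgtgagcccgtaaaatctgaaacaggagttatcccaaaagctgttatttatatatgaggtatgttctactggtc
Lrrtm3, chr10:64243485-64243685, plus strand: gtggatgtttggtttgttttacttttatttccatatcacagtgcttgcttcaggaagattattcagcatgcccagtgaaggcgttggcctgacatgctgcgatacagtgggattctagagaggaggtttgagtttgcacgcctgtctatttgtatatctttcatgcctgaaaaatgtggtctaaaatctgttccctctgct
The first 5 are gained and the last 2 lost. A match is a description of the letters and not evidence that the factor was bound.

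Regions restricted in this way were rare among strong peaks. The gained regions were 0.119% and the lost regions 0.0332% of all merged regions, and without the strength limit 7282 regions (1.91%) were gained and 4579 (1.2%) were lost. Of 44098 regions strong in both maxillary-labelled libraries, 40388 (91.6%) had a peak in all 4 other libraries, 1699 in 3, 1076 in 2, 479 in 1 and 456 in none. On the other side, 38127 regions were strong in all 4 other libraries, of which 37429 (98.2%) were called in both maxillary-labelled ones, 571 in one and 127 in neither. Of those 571 regions, 476 were called only in maxillary-labelled replicate 2 and 95 only in replicate 1. The mandibular-labelled libraries had 673 gained and 71 lost regions under the same rule, and the nose-labelled ones 695 and 147.

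**Figure D1:**
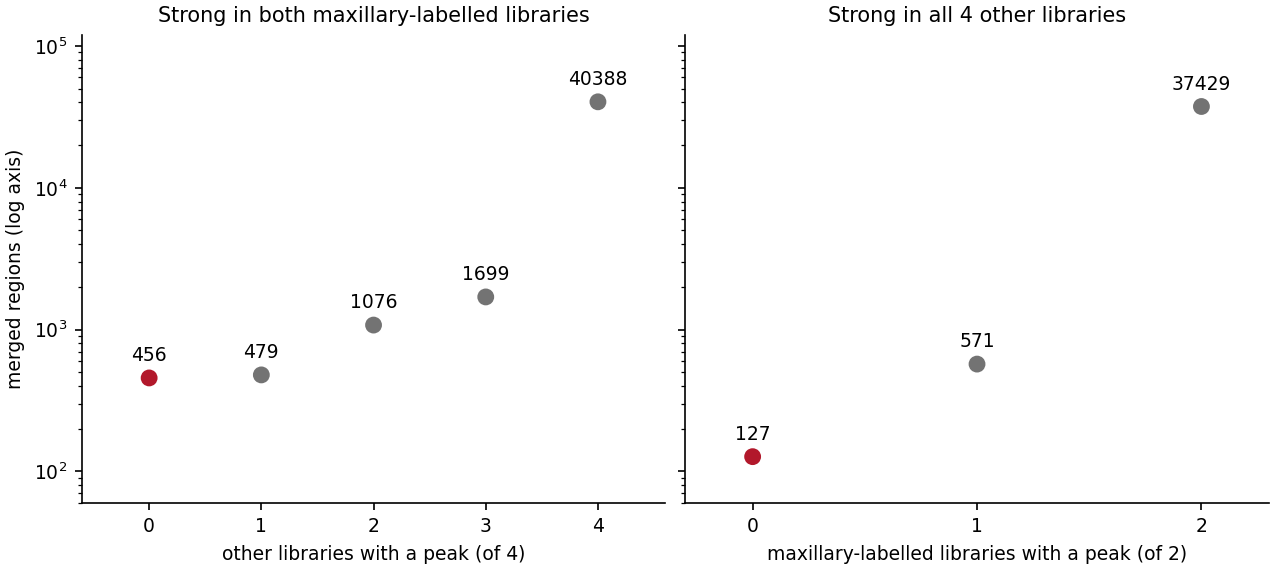
Number of merged regions (log axis) by how many other libraries had a peak in them, for 44098 regions strong in both maxillary-labelled libraries (left) and 38127 regions strong in all 4 other libraries (right). The red points are the 456 gained and 127 lost regions, and the great majority of strong regions, 40388 and 37429, had a peak in every library.

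The 2 maxillary-labelled lists were unequal, and the counts rested on both. Replicate 1 held 139404 called regions, of which 45499 (32.6%) were strong, and replicate 2 held 171884, of which 94511 (55.0%) were strong. In the other 4 libraries 33.1% to 40.4% of regions were strong. With replicate 1 left out the gained regions numbered 5903, and with replicate 2 left out 662, while leaving out any other single library gave 545 to 612. The lost regions numbered 222 without maxillary-labelled replicate 1 and 611 without replicate 2. They numbered 199 and 234 without mandibular-labelled replicates 1 and 2, and 225 and 215 without nose-labelled replicates 1 and 2.

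Among the gained regions the −log10 q ran from 5.005 to 21.1 in maxillary-labelled replicate 1, with a median of 6.63, and from 5.01 to 35.6 in replicate 2, with a median of 12.0. It was higher in replicate 2 in 418 of 456 regions (91.7%), and in 95.6% of the 40388 regions that were strong in both and called in all others, so the same imbalance ran through shared peaks. The deposited values came in steps: 97 gained regions had exactly 6.06 in replicate 1 and 51 had 7.20. Expressed as fold over local background, the gained peaks had a median of 6.07 in replicate 1 and 7.12 in replicate 2. The lost regions had medians of 8.52 and 7.85 in the mandibular-labelled and 8.87 and 8.09 in the nose-labelled libraries, with ranges from about the limit to 24.8, 29.6, 36.3 and 29.5 in that order. No single library dominated them, as the highest value lay in mandibular-labelled replicate 1 in 42 regions, replicate 2 in 24, nose-labelled replicate 1 in 28 and replicate 2 in 33.

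**Figure D2:**
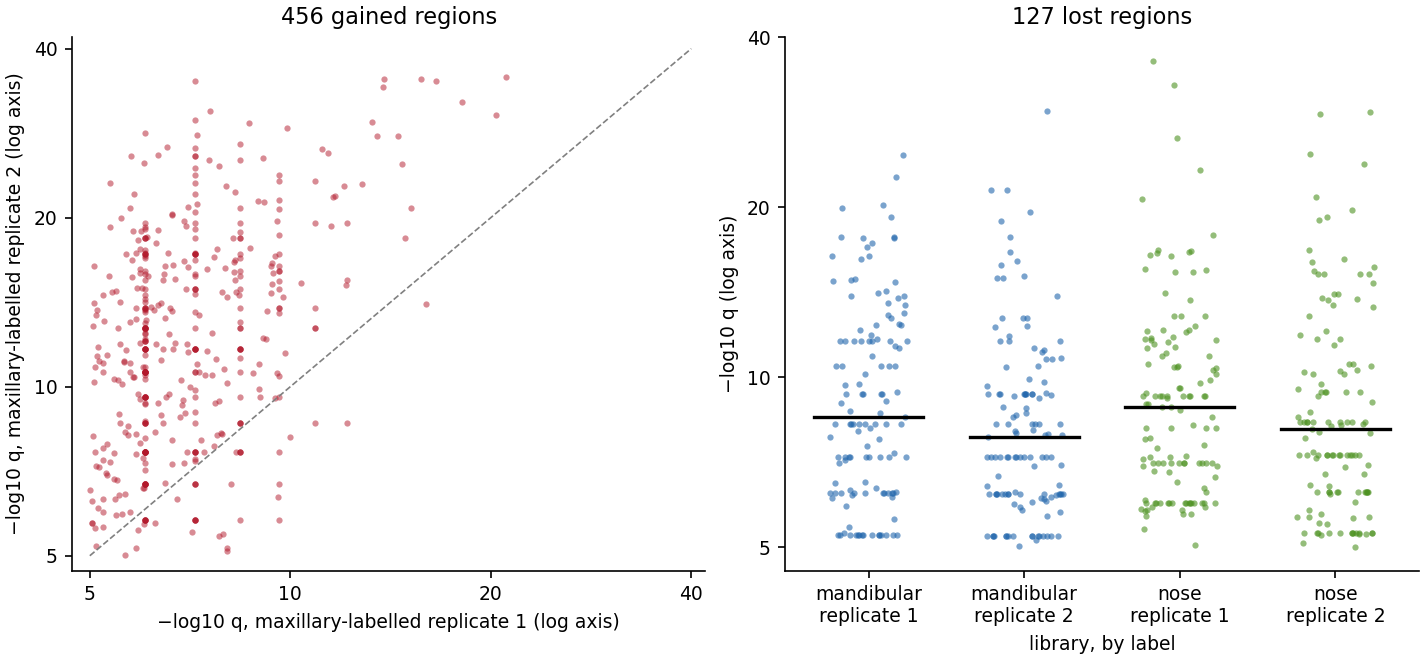
Peak strength (−log10 q, log axes) of each of the 456 gained regions in the 2 maxillary-labelled libraries (left, dashed line at equal values) and of each of the 127 lost regions in the 4 other libraries (right, black bars at the medians). Most gained points lie above the line, 418 of 456, and vertical stacks are regions sharing a stepped value in replicate 1. The medians of the lost regions lie between 7.85 and 8.87.

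Many members sat near the limit. The weakest gained region had 5.005 in its weaker library and the strongest region just outside 4.97. In the weaker library 113 gained regions lay between 5 and 6 and 30 were at 10 or more, and 434 more regions with the same presence lay between 4 and 5. The weakest lost region had 5.01 and the next one outside 4.98, with 70 members between 5 and 6, 7 at 10 or more, and 182 further regions between 4 and 5. Gaps to other open DNA were measured for members only, so they cannot be set beside those of other regions. The median gap from a gained region to the nearest region called in one of the other 4 libraries was 2350 bp, and 127 (27.9%) lay within 1 kb of one. For lost regions the median gap to a region of a maxillary-labelled library was 5323 bp, and 26 (20.5%) lay within 1 kb.

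The strongest gained region lay between genes, 1051 kb downstream of the start of Stim2, which encodes a calcium sensor of the endoplasmic reticulum. Its −log10 q was 21.1 in maxillary-labelled replicate 1 and 35.6 in replicate 2, the highest value of all gained regions in each. An intron of Plod2, a lysyl hydroxylase that modifies collagen, held the next, with 20.4 and 30.5, at 55.8 kb from the start site. The region 49.3 kb upstream of Odf1, a protein of the sperm tail, had 18.1 and 32.1. An intron of Agbl1, a carboxypeptidase acting on tubulin, held one with 16.6 and 35.1, and 56.1 kb upstream of Cryz, a quinone reductase of the crystallin family, another had 15.7 and 35.4. All of them were stronger in replicate 2, and all but the Nrg4 and Olfr275 regions of the first 10 exceeded 20 in that library. The Nrg4 region, in an intron of this gene for a ligand of the ErbB4 receptor, had 14.9 and 18.4. The Olfr275 region, near an olfactory receptor gene, had 16.0 and 14.0 and was the one exception in direction. The remaining members of the first 10 were a region in an intron of Cntn4, a neuronal adhesion protein (15.2 and 20.8), one in an intron of the scaffold gene Frmpd2 (14.7 and 24.9) and one 28.2 kb upstream of Arhgap29 (14.5 and 27.9). Arhgap29 encodes an inhibitor of small GTPases that has been linked to cleft lip.

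The strongest lost region lay in an intron of Vmn1r88, a vomeronasal receptor gene, 4.5 kb upstream of its nearest start site. Its −log10 q was 16.4 and 18.9 in the mandibular-labelled and 36.3 and 29.5 in the nose-labelled libraries, so the nose values were the higher pair. The region nearest to Cdh8, a cadherin of neurons, was 1492 kb from its start and had 13.9, 21.5, 16.4 and 15.3 in mandibular-labelled replicates 1 and 2 and nose-labelled replicates 1 and 2. A region in an intron of Ctnna3, nearest to the start of the synaptic gene Lrrtm3, had 17.8, 17.7, 20.7 and 13.3 in the same order. Upstream of Adamts3, which trims procollagen, the values were 24.8, 16.6, 12.1 and 16.0, here with the mandibular-labelled replicate 1 highest. The other 6 of the first 10 were nearest to Mat2b, the ephrin gene Efnb2, Cttnbp2, Odam (a protein of tooth-forming epithelium), the receptor regulator Lrig1 and Gm11042, and their weakest values ran from 9.27 to 11.4, the lowest of them tied with a region at Galp. At Odam the mandibular-labelled replicate 2 reached 29.6 against 9.91 in nose-labelled replicate 1, so libraries of one label did not move together at every lost region.

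Both sets lay mostly far from protein-coding start sites. Only 4 of 456 gained regions (0.877%, 95% Wilson interval 0.342% to 2.23%) and 0 of 127 lost regions lay within 1 kb of a protein-coding start site, against 8.27% of all merged regions. The latter share is over regions of any strength. Of the 44098 regions strong in both maxillary-labelled libraries, 28796 were called in another library and lay more than 1 kb from a start. A count of 0 of 127 allows a share of up to 2.36% when 3 counts are taken as the limit, and the Wilson interval reaches 2.94%. With maxillary-labelled replicate 2 left out, the promoter share of lost regions was 5.73%. Without replicate 1, that of gained regions was 2.44%. These intervals and limits cover counting error only. Gained regions lay at a median of 88.8 kb and lost regions at 115 kb from the nearest start. Distal regions of like strength that were shared by all 6 libraries, 15135 with 5 to 10 in the weaker maxillary-labelled library and 13226 with 5 to 10 in the weakest of the others, had medians of 49.0 and 49.5 kb. More than 100 kb from any start lay 219 gained (48.0%) and 68 lost regions (53.5%), and 36 (7.89%) and 18 (14.2%) lay beyond 500 kb. Few promoters and long distances were common to all labels under the same rule: 10 of 673 mandibular-labelled (1.49%) and 9 of 695 nose-labelled gained regions (1.29%) were promoters, with median distances of 105 and 119 kb.

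**Figure D3:**
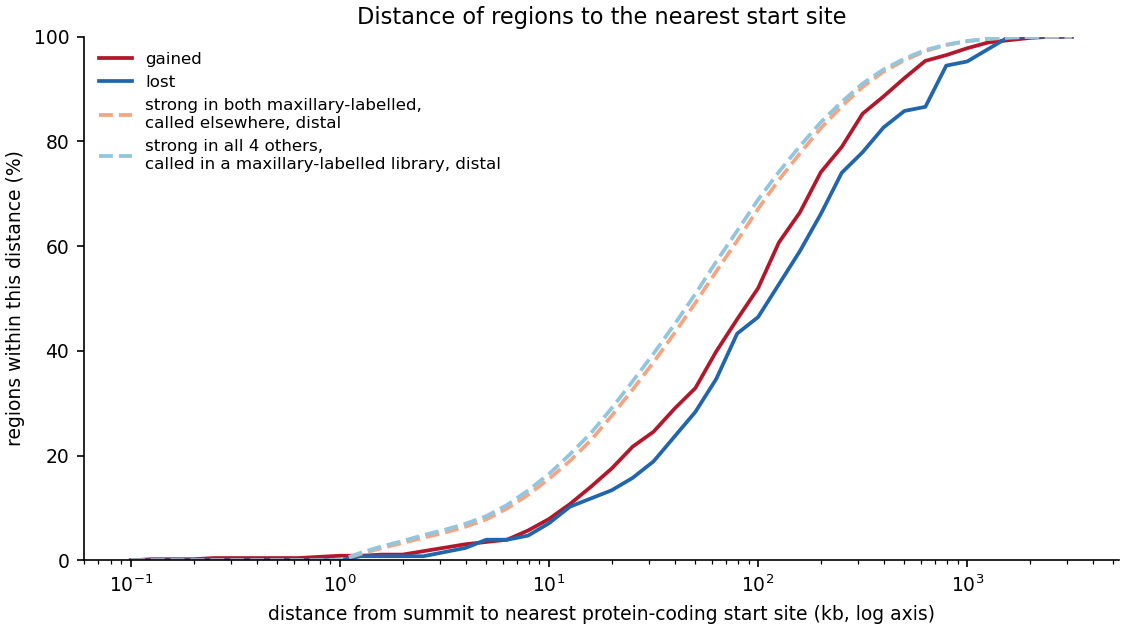
Cumulative share of regions (%) by distance from the summit to the nearest protein-coding start site (kb, log axis), for the 456 gained and 127 lost regions (solid lines) and for shared distal regions that met the same strength limit (dashed lines). The dashed lines leave out promoters, so they start at 1 kb. At 100 kb the gained line has reached 52.0%.

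By annotation, 236 gained regions (51.8%) were intergenic, 211 (46.3%) intronic, 4 in untranslated regions, 3 in noncoding exons and 2 in coding exons. Of the lost regions 72 were intergenic, 50 intronic, 4 in noncoding exons and 1 in a coding exon. These classes were counted for members only, so they cannot be set beside those of other regions. The base composition was lower in G and C than in shared regions: the median window held 45.3% in gained and 43.3% in lost regions, against 48.8% in both sets of shared distal regions. All distal regions had a median of 46.8%. The mandibular-labelled and nose-labelled gained regions had medians of 40.8% and 43.8%. No CpG was present in 23.6% of lost windows, 15.4% of gained windows and 10.1% of the shared windows set beside the lost ones. Over all merged regions the share was 15.7%, near that of the gained windows. Windows with repeats, as the genome sequence marks them, over at least 50% of their bases were 13 of the gained (2.85%) and 9 of the lost (7.09%) regions. The share was 5.92% of all merged regions, and 2.20% and 2.12% of the shared distal regions set beside the gained and the lost ones. The X chromosome carried 19 gained regions (4.17%) and 3 lost ones (2.36%), against 2.57% of all regions.

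The 4 promoter regions, named here after their positions were seen, were at Crisp2, Gnaz, Heph and Tnni1. Tnni1 encodes the slow skeletal muscle form of troponin I, and the region lay 901 bp downstream of its start with 8.39 in maxillary-labelled replicate 1 and 15.7 in replicate 2. No other library had a peak within 1 kb of a start site of this gene. Crisp2, a gene of sperm and testis, had 6.06 and 13.8, Gnaz, a G protein subunit, 5.53 and 6.43, and Heph, a copper oxidase of iron transport, 5.12 and 5.20. At those 3 genes all 6 libraries had another peak within 1 kb of one of the gene's start sites, so the promoter as a whole was not restricted to the maxillary-labelled libraries.

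For most nearest genes the promoter itself was open everywhere. The 237 gained regions within 100 kb of a start were assigned to 232 genes, and 193 of these (83.2%) had a promoter peak in all 6 libraries, against 87.9% of 14950 genes nearest to other regions strong in both maxillary-labelled libraries. The 59 lost regions within that distance belonged to 59 genes, of which 44 (74.6%) had such a promoter, against 88.5% of 14710 comparable genes. Of the genes nearest to gained regions, 26 (11.2%) had no promoter peak in any library, against 7.48% of their comparable genes. Of those nearest to lost regions, 11 (18.6%) had none, against 7.13%. The share was 26.5% over all protein-coding genes. Among all of these genes only Tnni1 and Zc2hc1b, the latter named after its values were seen, had a promoter peak in both maxillary-labelled libraries and nowhere else. No gene had 3 or more members. Arhgef4, Timp3, Fign, Cdh6 and Lvrn had 2 gained regions each, named here after their counts were seen, and at Arhgef4, Timp3 and Fign the pair was separated by 62, 88 and 104 bp, so these are not independent regions. The 2 regions upstream of Cdh6, a cadherin of the neural crest, were 20059 bp apart and had 7.59 and 30.9, and 6.06 and 17.1, in maxillary-labelled replicates 1 and 2.

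Within 50 kb of the 456 gained regions lay 294 other regions gained without the strength limit and 127 lost ones. Over the whole genome the 2 kinds numbered 7282 and 4579. Of the gained regions 193 (42.3%) had such a gained neighbour and 22.4% a lost one. How many other regions had such neighbours was not measured, so these shares do not show clustering. Around the 127 lost regions 42 gained and 36 lost regions of any strength were found. Another strong member of the same kind lay within 50 kb of 26 gained regions (5.70%) and of 2 lost ones (1.57%).

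Among patterning genes, 3 members lay near the lower-jaw list, all gained. Each of the 3 genes encodes a homeobox transcription factor. Nkx3-2, a marker of the jaw joint, had a gained region 14.0 kb downstream of its start with 6.97 in maxillary-labelled replicate 1 and 19.3 in replicate 2. Barx1, a gene of molar mesenchyme, had one 72.1 kb downstream with 5.66 and 17.2. Gsc, a target of endothelin signalling in the lower arch, had one 84.6 kb upstream with 5.07 and 14.1, close to the limit, and a region called in another library lay 59 bp from it. The strength of all 3 was much higher in replicate 2 than in replicate 1, as it was in most gained regions. No lost region was nearest to a gene of this list within 100 kb.

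Near the 6 genes of the upper-jaw list (among them Pou3f3, Nr2f1, Nr2f2 and Meis2) there was no gained and no lost region. In the frontonasal list, Pax3, a paired-box gene of neural crest and of the nasal region, had a lost region in its intron, 75.5 kb from the start, with 9.43 and 6.40 in the mandibular-labelled and 5.99 and 7.79 in the nose-labelled libraries. Without the strength limit 2 gained and 2 lost regions lay near Pax3. These lists hold too few members to compare, and they are given as values. Their windows are shown because these genes are the ones used to place tissue in the face.
Nkx3-2, chr5:41750385-41750585, plus strand: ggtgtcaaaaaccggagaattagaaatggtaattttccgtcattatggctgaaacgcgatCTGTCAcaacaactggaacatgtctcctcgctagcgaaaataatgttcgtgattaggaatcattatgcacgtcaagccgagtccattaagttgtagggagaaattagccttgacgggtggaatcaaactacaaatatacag
Barx1, chr13:48735032-48735232, plus strand: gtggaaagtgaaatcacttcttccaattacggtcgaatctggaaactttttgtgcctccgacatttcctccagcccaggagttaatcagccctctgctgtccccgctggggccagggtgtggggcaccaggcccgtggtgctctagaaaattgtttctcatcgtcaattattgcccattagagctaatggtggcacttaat
Gsc, chr12:104557786-104557986, plus strand: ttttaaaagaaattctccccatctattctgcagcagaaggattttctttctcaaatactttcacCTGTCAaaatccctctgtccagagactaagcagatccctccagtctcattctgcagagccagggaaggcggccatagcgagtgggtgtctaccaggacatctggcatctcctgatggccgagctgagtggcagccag
Pax3, chr1:78121236-78121436, plus strand: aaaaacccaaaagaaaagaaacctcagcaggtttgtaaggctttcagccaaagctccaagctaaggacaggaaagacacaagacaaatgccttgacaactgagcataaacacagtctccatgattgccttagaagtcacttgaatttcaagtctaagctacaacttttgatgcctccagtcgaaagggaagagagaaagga
The MEIS motif is in capitals in the Nkx3-2 and Gsc windows and none of the 5 marked motifs is in the Barx1 or Pax3 window.

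**Figure D4:**
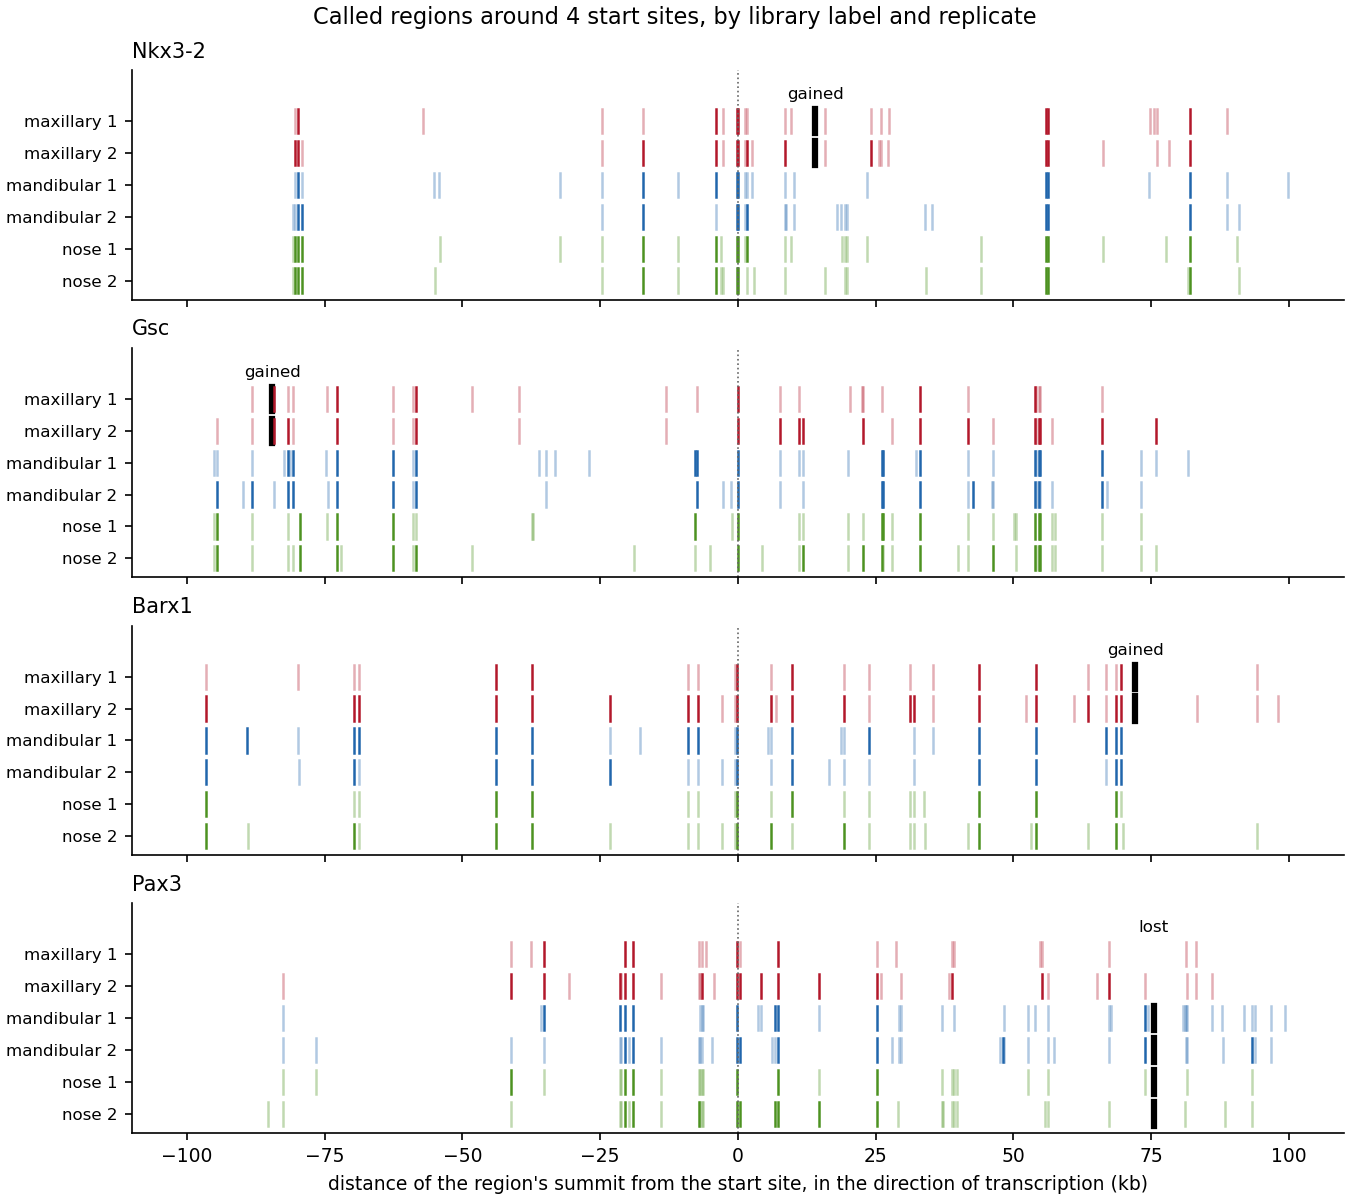
Regions called in each library within 100 kb of the start sites of Nkx3-2, Gsc, Barx1 and Pax3, by distance of the summit from the start in the direction of transcription (kb). Each tick is a region (faint where its −log10 q was under 5), rows are libraries by label and replicate, the dotted line is the start site, and the thick black ticks are the gained or lost regions, present in 2 of 6 or 4 of 6 rows. Most other ticks recur in rows of all labels, and near Pax3 the maxillary-labelled replicates have 20 and 31 regions against 27 to 40 in the 4 other libraries.

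The other genes named for the label check had no member within 100 kb. Hand2, which specifies the lower jaw, had 4 gained and 0 lost regions when strength was not required, and its regions were called 28 and 27 times in the maxillary-labelled, 20 and 21 times in the mandibular-labelled and 17 and 20 times in the nose-labelled libraries. One gained region, chr8:57085530-57085984, had Hand2 as its nearest gene from 235 kb upstream, with 9.62 and 14.9. Dlx5 had 0 gained and 1 lost region of any strength, Dlx6 had 2 and 1, Hand1 had 0 and 0, and Pou3f3 had 2 and 0. Alx1 had 0 gained and 2 lost, and its regions were called 21 and 19 times in the maxillary-labelled libraries against 32 to 37 times in the other 4. Alx4 had 0 gained and 3 lost, with 18 calls in each maxillary-labelled library against 24 to 30. At Hand2 both maxillary-labelled libraries had more calls than any other, as did 53 (1.27%) of 4177 genes with at least 20 regions. At Alx1 and Alx4 they had fewer than any other, as did 722 (17.3%) of these genes, so the lower counts there were common.

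Members near other gene lists were single. Sox6, a gene of cartilage formation, had a gained region 14.3 kb upstream with 8.39 and 10.6. The lists of muscle progenitors and of neurons shared one member, at Isl1, a gene of sensory neurons and of pharyngeal muscle progenitors, 93.2 kb downstream with 9.63 and 21.5. Tcf21, also of muscle progenitors, had one 88.7 kb upstream with 6.06 and 11.7. Erg, a factor of endothelium, had one in its intron with 13.5 and 27.9. The other lists had no member: first arch and facial mesenchyme, nasal epithelium, facial signals, pharyngeal endoderm, surface and oral epithelium, forebrain and eye, second-arch Hox genes, Schwann precursors and melanoblasts, and blood and macrophages. Without the strength limit, where 1.91% of all regions were gained and 1.2% lost, the muscle list had 10 gained and 4 lost of 235 regions (4.26% and 1.70%) and endothelium 8 and 5 of 308 (2.60% and 1.62%). The list of neurons had 6 and 1 of 286 (2.10% and 0.350%), and Schwann precursors and melanoblasts had 6 and 0 of 206 (2.91% gained). The share of these cell types in each library was not measured.

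The CTCF motif was nearly absent from both sets. It was in 1 of 456 gained windows (0.219%, 95% Wilson interval 0.0387% to 1.23%) and in 0 of 127 lost windows, which allows up to 2.36% at 3 counts and 2.94% by the Wilson interval. With maxillary-labelled replicate 2 left out, 22 of 611 lost windows (3.60%) had it. Shared distal regions of like strength had it in 11.48% and 12.4%, and distal regions called in all 6 libraries in 10.2%. The same held for the other labels, with 4 of 673 mandibular-labelled and 2 of 695 nose-labelled gained windows.

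The MEIS motif was more frequent in gained regions than in shared ones, by shares whose intervals cover counting error only and without a test. MEIS proteins are homeodomain factors that work with PBX and HOX partners and are widely used in facial mesenchyme. Their motif was in 109 gained windows (23.9%, 20.2% to 28.0%), against 15.5% of the 15135 shared regions of like strength and 16.7% of all distal regions. It was more frequent in windows under 45% G and C (22.1% against 14.1%) and in those with more (25.4% against 16.0%), and in a narrower window of 50 bp on either side of the summit (11.8% against 8.31%). In lost windows it was found in 22 (17.3%, 11.7% to 24.8%) against 15.9%. The mandibular-labelled gained regions had it in 22.1% (19.2% to 25.4%) and the nose-labelled ones in 11.4% (9.22% to 13.9%), so both sets of jaw-labelled libraries lay above the shared level and the nose below it. The gained regions with the motif had a median −log10 q of 6.89 in their weaker library and those without it 6.33.

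Forkhead factors, several of which are expressed on the oral side of the jaw processes, have a motif found in 25 gained windows (5.48%, 3.74% to 7.97%) against 2.93% of shared regions, and in 3.12% and 3.17% of the mandibular-labelled and nose-labelled gained windows. In the narrower window the gained share was 1.97% against 1.52%, on 9 regions. A MEIS or a forkhead match was present in 126 gained windows (27.6%) and both in 8. The homeobox motif, shared by Dlx, Msx, Alx and other factors, was in 32 gained windows (7.02%, 5.01% to 9.74%) against 4.83%. That difference lay in windows of low G and C, with 12.0% against 8.57% under 45% and 2.82% against 3.35% above. The E-box of Twist and Hand proteins (CAGATG) was in 26.8% of gained and 26.0% of lost windows, against 25.9% and 24.4% of the shared regions.

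In lost regions the GATA and RUNX motifs had higher shares than in shared ones. The GATA motif was in 21 of 127 lost windows (16.5%, 11.1% to 24.0%) against 7.28% of shared regions and 9.21% of gained windows, and in the narrower window in 12 (9.45%) against 2.61%. The mandibular-labelled and nose-labelled lost windows had it in 14.1% (7.83% to 24.0%) and 6.80% (3.74% to 12.1%). It was higher in lost windows under 45% G and C (21.5% against 10.7%) and less so in the 48 with more (8.33% against 5.91%). GATA factors act in blood, endothelium, epithelium and pharyngeal tissue. RUNX factors act in bone, cartilage and blood, and their motif was in 16 lost windows (12.6%, 7.91% to 19.5%) against 5.47%, whereas gained windows had it in 19 (4.17%, 2.68% to 6.42%) against 5.84%. The mandibular-labelled gained regions had it in 17.1% (14.4% to 20.1%), and the lost windows of the mandibular and nose labels in 8.45% (3.93% to 17.2%) and 10.9% (6.81% to 16.9%), within the interval of the maxillary-labelled lost windows. Among the lost windows the RUNX matches lay mostly away from the summit, since within 50 bp only 3 (2.36%) had one against 2.81% of shared regions. They were in 9 of 48 windows of 45% G and C or more and in 7 of 79 below. No lost window held both motifs and 37 (29.1%) held either. Over all merged regions the shares were 3.69% for CTCF, 16.3% for MEIS, 3.12% for forkhead, 5.11% for homeobox, 9.04% for GATA and 5.39% for RUNX.

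The strongest regions beyond those above that carried the forkhead, RUNX and GATA motifs show how they sit around the summit, which is the middle base of each window. The genes were picked for these motifs after the values were seen: Arhgap29 is gained, with the forkhead match near one end, and Cttnbp2 and Rerg are lost.
Arhgap29, chr3:121924896-121925096, plus strand: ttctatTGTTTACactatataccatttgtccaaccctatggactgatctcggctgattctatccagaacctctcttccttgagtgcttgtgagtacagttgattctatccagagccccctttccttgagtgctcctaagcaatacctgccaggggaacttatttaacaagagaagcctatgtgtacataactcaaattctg
Cttnbp2, chr6:18373662-18373862, plus strand: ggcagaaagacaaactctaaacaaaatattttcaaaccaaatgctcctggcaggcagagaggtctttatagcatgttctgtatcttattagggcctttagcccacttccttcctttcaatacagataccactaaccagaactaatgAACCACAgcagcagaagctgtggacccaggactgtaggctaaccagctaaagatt
Rerg, chr6:137098094-137098294, plus strand: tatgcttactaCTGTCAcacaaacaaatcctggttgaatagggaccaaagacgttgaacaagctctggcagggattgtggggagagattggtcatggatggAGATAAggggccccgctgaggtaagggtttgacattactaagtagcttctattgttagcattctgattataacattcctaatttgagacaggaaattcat
The Cttnbp2 region, in an intron of this gene for a protein of dendritic spines, had a −log10 q of 17.7 and 10.8 in the mandibular-labelled and 26.5 and 16.2 in the nose-labelled libraries. The Rerg region, in an intron of a gene for a small GTPase, had 10.9, 9.18, 9.36 and 12.1 in the same order.

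**Figure D5:**
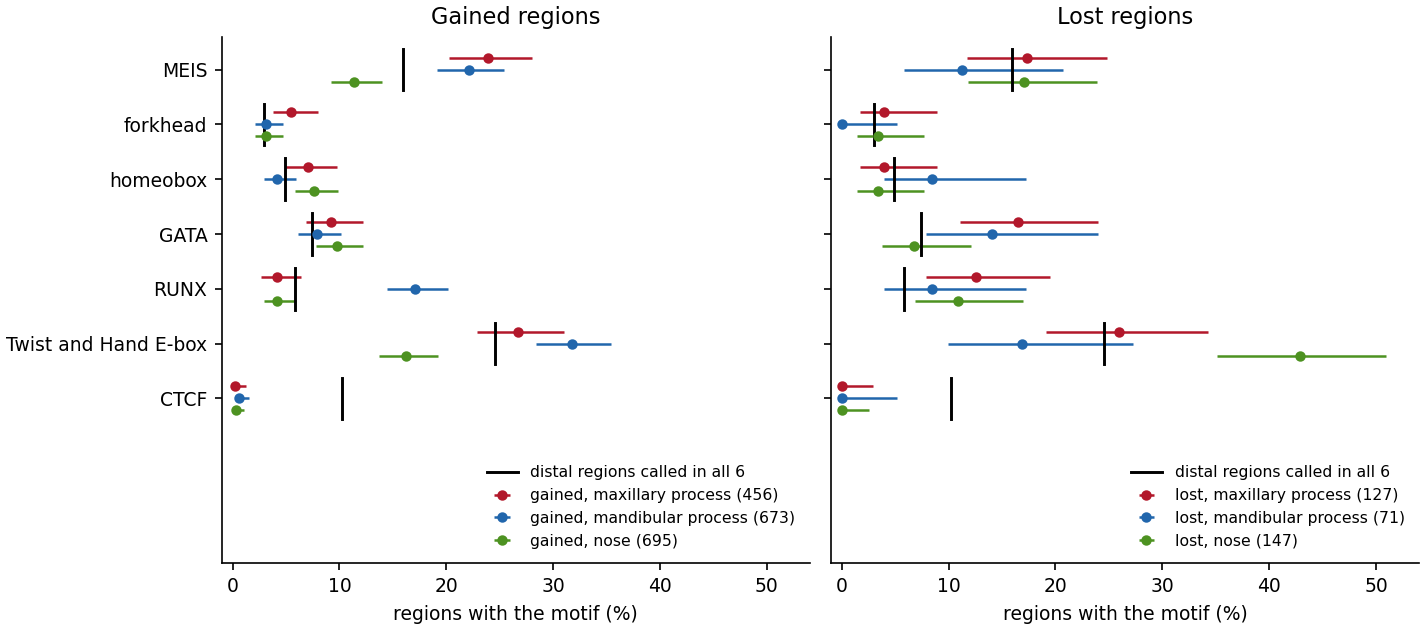
Share of regions (%) whose 201 bp window holds each motif, for gained (left) and lost regions (right) of each label, with 95% Wilson intervals as bars, and numbers of regions in the legend. Black lines are the shares in distal regions called in all 6 libraries. The maxillary-labelled gained regions lie above the line for MEIS (23.9%) and forkhead (5.48%), the lost ones for GATA (16.5%) and RUNX (12.6%), and all labels lie near 0 for CTCF.

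These motifs were named out of 24 searched, after their shares were seen. Of the others, TEAD (GGAATG) was in 17.8% of gained and 19.7% of lost windows against 15.1% and 14.8%, and the E-box of MyoD type (CAGCTG) in 19.3% and 11.8% (7.29% to 18.6%) against 20.5% and 19.3%, so lost windows had it less often than the shared ones. SOX (ACAAAG) was in 17.98% and 18.1% against 16.1% and 16.3%. TFAP2, a factor family of neural crest and ectoderm with the motif GCCNNNGGC, was in 16 gained windows (3.51%, 2.17% to 5.62%), a lower share than the 7.004% of the shared regions, and in 7 lost windows (5.51%) against 7.36%.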

How the data were processed

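Bulk ATAC-seq peak lists of 6 libraries from the face of wild-type embryos at stage E11.5 were used, 2 per label. The authors' processing notes name Bowtie2, SAMtools and mm10, without versions. The peak caller and read depth are not given in the sources used here. The authors deposited one list per library, giving each summit a score, a ratio (fold over local background) and its p and q values as −log10, scaled within that library. The deposited score and −log10 p were only inspected. The lists hold 219779 to 299731 summits, and the lowest deposited −log10 q was 1.30 in 4 lists, 1.62 in mandibular-labelled replicate 1 and 2.55 in maxillary-labelled replicate 2, so absence of a peak means different things between lists.

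From these, overlapping peaks were merged and members found as stated in the report, with the highest −log10 q of a library in a region as its value. The summit ranking highest in its own list stood for a region, which was given the nearest of 21827 protein-coding genes of GENCODE M21. Counts by gene or list used regions within 100 kb of a start, and promoters lay within 1 kb. Motifs were searched on both strands within 100 bp on either side of the summit, by exact letters. The motifs of CTCF, NFI, EBF, MEF2 and the p53 family are given by name alone. Named genes were those of the 10 strongest gained and lost regions, list genes with a member and 8 genes of the label check. Others are marked in the text, and some items covered by this rule are not reported here. Members, lists and motifs were chosen with earlier results of these data known. No test was run, since the rule used presence and strength and each label has 2 libraries. The code was tested on simulated peaks. Scripts ran in Python 3.11.15 (scipy 1.17.1, pandas 2.3.3, numpy 2.4.6).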

Additional observations from a re-analysis of the deposited data

How the results depend on the processing

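The counts of members depended on how strong and how separate a peak had to be. At a −log10 q of at least 3 there were 1887 gained and 736 lost regions, and at 10 or more 30 and 7. With all lists cut to their 219779 best summits there were 832 and 216, and with every list starting at 2.55 there were 837 gained regions and 174 lost ones, the latter within 1.5 times the reported count. When a library had to cover at least 50% or 200 bp of a region to count as present, 1067 and 332 were found. Cutting peaks to 100 bp on either side of the summit before merging gave 500 and 132. Gained regions outnumbered lost ones in each of these settings, but the rule asks for strength in 2 libraries for a gained region and in 4 for a lost one. Under the reported rule there were 3.59 gained regions per lost one for the maxillary label, 9.48 for the mandibular label and 4.73 for the nose.

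Near the lower-jaw list the 3 gained regions became 0 at 10 or more and 1 within 50 kb, and the lost count was 1 at 3 or more. Near the upper-face lists (upper jaw and frontonasal together) the 1 gained region became 4 at 3 or more, 0 at 10 or more and 2 when every list gene within 100 kb counted. The 1 lost region there became 0 at 10 or more and within 50 kb, and 2 with lists of equal length and with the cover rule. The promoter share of gained regions was 0% of 30 at 10 or more. Leaving out 1 library at a time gave 545 to 5903 gained and 199 to 611 lost regions, 3 to 9 gained and 0 to 1 lost near the lower-jaw list, 1 to 6 gained and 1 to 3 lost near the upper-face lists, and promoter shares of 0.707% to 2.44% and 0% to 5.73%. The upper ends of the results on gained regions came without maxillary-labelled replicate 1, the library with the fewest strong regions.

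Motif shares in the 201 bp windows moved less in the settings where they were computed. These were the lower strength limit, lists of equal length and the settings with a single library left out. There, MEIS in gained regions stayed between 21.8% and 24.7%. Motif shares were not computed at the higher strength limit, with a common lowest value, under the cover rule or with peaks cut around the summit. RUNX in lost regions fell to 7.69% without maxillary-labelled replicate 2 and GATA to 10.2% without nose-labelled replicate 1, and CTCF in lost regions was 3.60% without maxillary-labelled replicate 2. The cause was not tested. No paired analysis was possible because the results come from no test and the labels do not tie equal replicate numbers to one embryo or day. Read depth was not used here, so no limit of detection can be given for an absent peak.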
